A study of Mus musculus with 60 samples.

Results

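The liver of male CC042/GeniUnc mice was compared after 40 and after 20 weeks on a control diet, in 10 of the 60 libraries of the series, 5 for each duration. The libraries were chosen by their labels alone (male, control diet, 20 or 40 weeks). CC042/GeniUnc is an inbred strain of the Collaborative Cross, a mouse panel bred from several founder strains. The control diet (TD.08485) is low in fat and reduced in sucrose, and it is matched in ingredients to the diet rich in milk fat, cholesterol and sucrose (TD.88137, HF/HS below) that the other arm of the study received. Libraries of female mice on the control diet and of male mice on the HF/HS diet, with 5 at 20 weeks and 5 at 40 weeks each, and of 5 male control mice at 60 weeks serve as points of reference. All these mice were of the same strain, and the labels name no transgene and no injected agent. The sources used here do not give the age of the mice when the diets began, the hour of the day at which livers were taken, or the feeding state. Each library has a number of its own in the labels, called the animal number here. Nothing else in the labels says how the libraries of a group were obtained, so p-values measure the spread between them. At 20 weeks these were 181, 182, 371, 372 and 373, and at 40 weeks 492, 493, 501, 502 and 503, and values of single libraries are printed in that order throughout.

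The liver stores and burns fat, makes glucose, cholesterol, bile acids and most plasma proteins, and clears foreign compounds. Many of its genes follow the hour of the day. The molecular clock behind this is a feedback loop, in which ARNTL (BMAL1) pairs with CLOCK or NPAS2 and switches on the Per and Cry genes, whose products hold the pair back. The D-box factors DBP, TEF and HLF, and their opponent NFIL3, pass the rhythm on to genes of fat, drug and amino acid metabolism. Chaperones of the endoplasmic reticulum fold the secreted proteins, and cytosolic heat shock proteins do so for the rest of the cell.

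Library totals ran from 10923963 to 17505297 counts, and levels are given as CPM, the counts scaled to library size. Hepatocyte markers summed to 72400 to 78610 CPM at 20 weeks and 66850 to 72940 CPM at 40 weeks, and all of them had counts. Library 373 stood apart from the other 20-week libraries. Pearson's r of its log2 CPM over genes was 0.955 to 0.973 with them, against 0.981 to 0.987 among the other 4 and 0.989 to 0.992 among the 40-week libraries. Results that rest on it are given with and without it. The libraries also differed in clock state. The first principal component of the 21 clock genes, which held 56.5% of their variance over the 60 libraries, lay between -3.97 and 1.88 in the 20-week group and between 4.87 and 6.85 in the 40-week group. As those ranges do not overlap, clock state and weeks on the diet cannot be told apart within these 10 libraries.

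At 40 weeks, genes of lipid droplets, of fatty acid oxidation and of the clock's D-box arm were higher than at 20 weeks. Chaperones of the endoplasmic reticulum, heat shock proteins, ribosomal proteins and part of the growth hormone and IGF axis were lower. Of 14180 genes tested with edgeR's quasi-likelihood test, 3284 (23.2%) passed at 0.05 after Benjamini-Hochberg adjustment and are said to have been called, to have risen or to have fallen. Of these, 1476 were higher at 40 weeks (10.4% of the genes tested) and 1808 lower (12.8%). With small non-coding RNAs taken out before the scaling, 1610 were higher and 1606 lower, and with only the 10 libraries 1066 and 1061. The count at an unadjusted p under 0.05 was 4947. The change was at least 2-fold for 259 of the higher and 169 of the lower genes. CPM ranges of the groups did not overlap for 1784 genes (12.6%), of which 1563 were called. The median log2 fold change of all tested genes was -0.01. With the clock component as a covariate over the 60 libraries, 809 genes were called, 672 of them among the 3284. Of 101 genes examined singly, 11 changed direction in that fit, and 33 were called, Per3 and Ppard of them in the opposite direction. The 33 included Arntl, Mogat1, Cd36, Gpnmb, Socs2, Rps6 and Pnldc1. The plot of calls by gene list sets these shares beside those of each list.

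**Figure D1:**
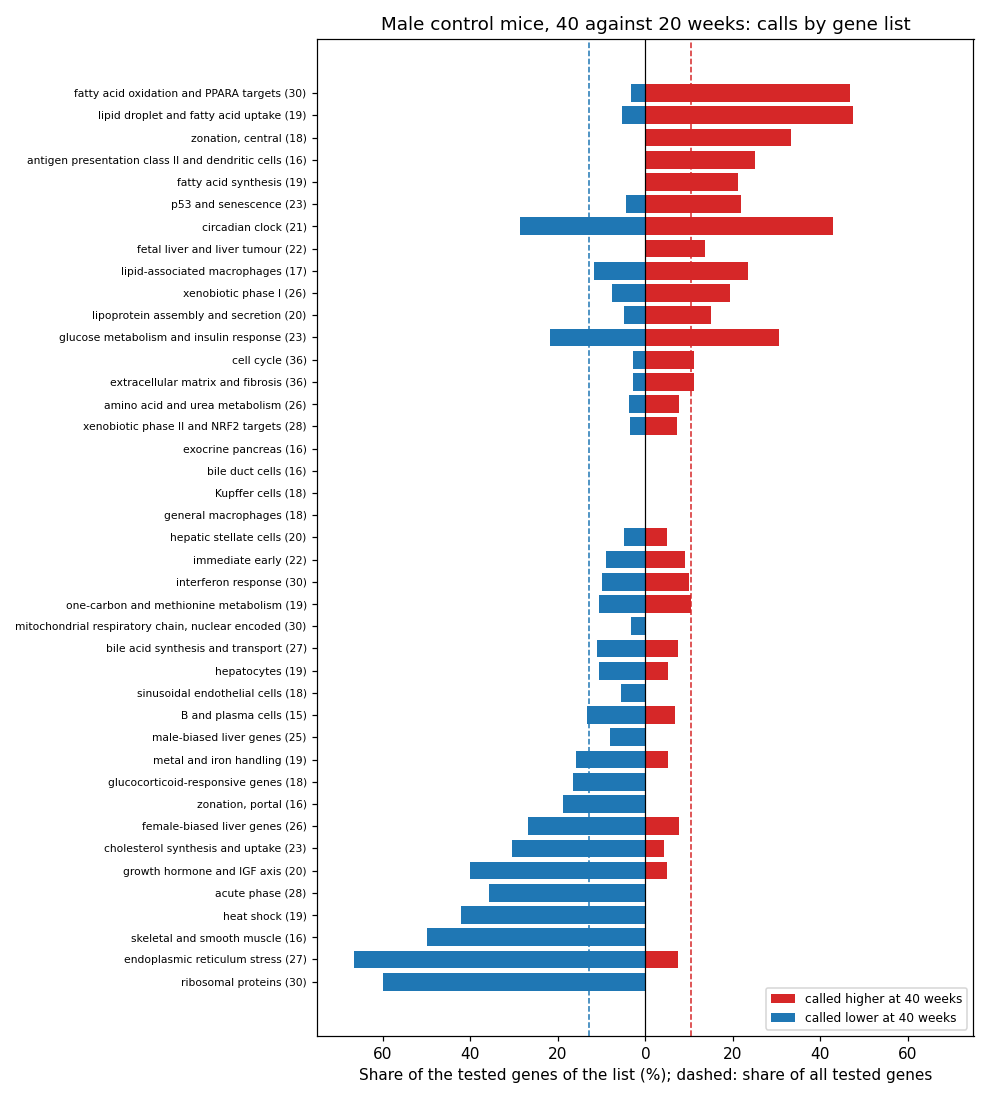
Share of the tested genes of each list that was called higher (red, to the right) or lower (blue, to the left) at 40 than at 20 weeks in male control mice, with the number of tested genes in brackets (lists of 15 or more). The dashed lines stand at the shares of all tested genes, 10.4% higher and 12.8% lower, and the endoplasmic reticulum stress list reaches farthest to the left, with 18 of 27 genes lower.

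Of the 21 clock genes, 9 rose and 6 fell, and the ranges of 13 did not overlap. The activating arm fell. Arntl was at 52.5, 47.1, 60.1, 38.9 and 48.4 CPM at 20 weeks and 14.2, 14.2, 9.51, 12.03 and 5.41 CPM at 40 weeks, so that the groups lay far apart. Its log2 fold change was -2.16 ± 0.23 (adjusted p = 4.27e-09). At 60 weeks the 5 male control libraries held 50.2 to 58.0 CPM of Arntl. Npas2, the alternative partner of ARNTL, was at 18.3, 7.02, 28.9, 5.81 and 15.6 CPM at 20 weeks and 3.94, 3.31, 2.51, 2.42 and 1.42 CPM at 40 weeks, again without overlap, and fell by 2.50 ± 0.43 on the log2 scale. Clock (-0.54 ± 0.08), Rora (-0.40 ± 0.10), which activates Arntl, and the repressors Cry1 (-0.75 ± 0.25) and Nfil3 (-1.53 ± 0.32) fell too. The call of Cry1 was lost without 181, 371, 492, 502 or 503.

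The D-box factors and Per3 rose. Dbp was at 7.16, 48.9, 2.47, 30.4 and 2.79 CPM at 20 weeks and 90.6, 99.7, 143, 84.1 and 149 CPM at 40 weeks. The 20-week libraries were spread widely, with 182 and 372 high, and all lay below the 40-week libraries. The log2 fold change was 2.65 ± 0.63 (adjusted p = 0.00142). Per3, a Per paralog, was at 13.7, 26.1, 4.52, 25.3 and 3.92 CPM at 20 weeks and 39.2, 49.9, 57.1, 38.6 and 56.6 CPM at 40 weeks and changed by 1.73 ± 0.41 with no overlap. Wee1, a clock-driven kinase that delays mitosis, was at 3.01, 5.30, 2.75, 4.92 and 2.73 CPM at 20 weeks and 16.3, 16.3, 21.5, 16.7 and 26.7 CPM at 40 weeks, and the change was 2.40 ± 0.28 (adjusted p = 5.15e-08). Ciart, a repressor of the clock, was at 0.501, 1.34, 0.847, 1.97 and 0.133 CPM at 20 weeks and 6.49, 6.69, 12.5, 3.89 and 9.13 CPM at 40 weeks and rose by 3.07 ± 0.64. Tef (1.26 ± 0.25), Hlf (0.79 ± 0.11), Cry2 (0.70 ± 0.14), Bhlhe40 (0.44 ± 0.13) and the clock-driven protease Usp2 (2.41 ± 0.36) were higher as well. Values of Per1 (0.60 ± 0.41), Per2 (0.50 ± 0.20) and Nr1d1 (0.31 ± 0.32) did not pass the test by edgeR. Per2 was called by DESeq2 and by limma (0.58, adjusted p = 0.00967), and by edgeR without 181 or 502. With the clock component as a covariate, the value was -1.07 (adjusted p = 0.00133) for Arntl and -0.93 (adjusted p = 0.106) for Dbp, but these genes helped to define it.

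**Figure D2:**
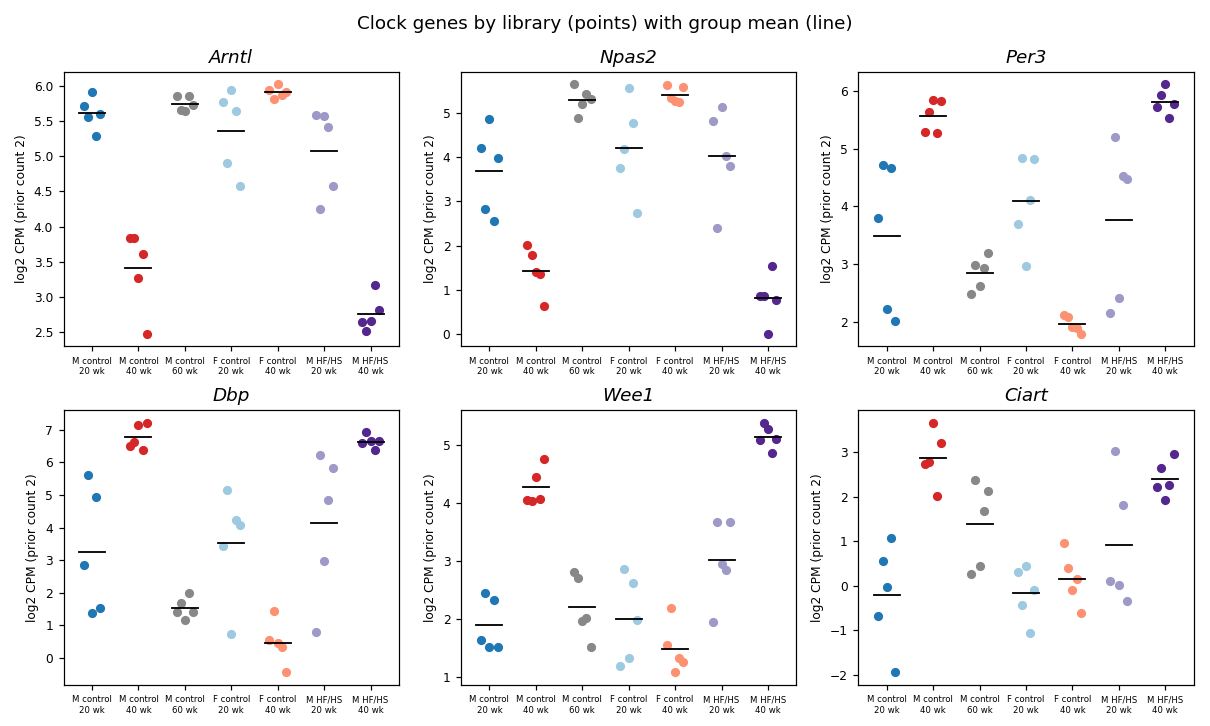
Log2 CPM (prior count 2, vertical axis) of 6 clock genes in each library (points) with the group mean (line), for male control, female control and male HF/HS mice at the weeks shown on the horizontal axis. Arntl and Npas2 are low and Per3, Dbp and Wee1 are high in both male groups at 40 weeks, while the female control group at 40 weeks lies at the other end for these 5 genes.

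The change of the clock genes differed between the sexes. In female control mice, 2 of the 21 rose and 6 fell, where 4.12% of all genes were called. The difference of the male and the female change was called for 18 of them, 12 higher and 6 lower in males, against 7.47% of all genes. Dbp changed by -3.54 ± 0.82 in females, and the difference (male minus female) was 6.19 ± 1.02 (adjusted p = 0.000141). For Arntl the female value was 0.46 ± 0.21 and the difference -2.62 ± 0.31 (adjusted p = 4.2e-07). In male HF/HS mice, 7 clock genes rose and 6 fell (17.4% of all genes were called), and a difference between the diets was called for 0 of the 21 by edgeR (2.17% of all genes), for 1 by DESeq2 and 1 by limma, with 3 at an unadjusted p under 0.05. Arntl changed by -2.43 ± 0.24 on that diet, with a difference (control minus HF/HS) of 0.27 ± 0.33 (adjusted p = 0.715).

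Promoters of 2 clock genes with large changes show the letters through which the loop is known to act. Each is 250 bases before to 50 after the start of the gene, from RefSeq (GRCm38.p6), on the strand of the gene. Capitals mark the E-box CACGTG, read by ARNTL and its partners, in Ciart (chr3:95882179-95882478, - strand), and the D-box TTATGNAA, read by DBP, TEF, HLF and NFIL3, in Per3 (chr4:151044616-151044915, - strand), searched on both strands.
Ciart: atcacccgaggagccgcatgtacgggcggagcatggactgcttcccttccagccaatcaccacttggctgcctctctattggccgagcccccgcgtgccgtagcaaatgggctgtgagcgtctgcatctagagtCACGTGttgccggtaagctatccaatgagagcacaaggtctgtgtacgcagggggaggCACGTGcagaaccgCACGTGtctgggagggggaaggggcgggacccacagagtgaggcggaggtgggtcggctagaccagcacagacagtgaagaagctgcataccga
Per3: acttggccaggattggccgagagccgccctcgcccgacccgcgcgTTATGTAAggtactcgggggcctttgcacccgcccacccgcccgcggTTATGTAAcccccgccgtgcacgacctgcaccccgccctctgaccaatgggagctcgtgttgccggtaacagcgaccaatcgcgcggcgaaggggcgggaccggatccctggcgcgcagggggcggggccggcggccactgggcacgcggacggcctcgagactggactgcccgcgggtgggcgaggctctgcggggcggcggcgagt
The Ciart window held 3 E-boxes, whose first letters lie -116, -58 and -44 bases from the start, and the Per3 window 2 D-boxes, at -205 and -158. Of the 32851 windows in the table, 7.15% held the E-box and 3.38% the D-box. Of the 21 clock genes, 17 had a window. The E-box was found in 5 (Bhlhe41, Ciart, Cry1, Per1 and Tef) and the D-box in 2 (Per1 and Per3). A match is a run of letters only, and binding was not measured.

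Genes of the endoplasmic reticulum stress list, which holds chaperones, disulfide isomerases and the transcription factors of the unfolded protein response, were lower at 40 weeks. Of 27 tested, 18 fell and 2 rose, with a median log2 fold change of -0.49. Hspa5 (BiP), the main chaperone of the compartment, was at 1375, 1645, 1660, 1519 and 906 CPM at 20 weeks and 867, 981, 1064, 669.9 and 762 CPM at 40 weeks. Its ranges overlapped through library 373, the lowest of the 20-week group. The change was -0.71 ± 0.16 (adjusted p = 0.00067). Dnajb9, its co-chaperone, was at 191, 193, 140.2, 123 and 70.1 CPM at 20 weeks and 59.1, 58.2, 59.7, 57.2 and 61.6 CPM at 40 weeks with no overlap, and fell by 1.28 ± 0.23. Manf (-0.87 ± 0.19), Sdf2l1 (-0.998 ± 0.26), Hsp90b1 (-0.51 ± 0.11), the isomerase Pdia4 (-0.49 ± 0.12) and the transcription factors Atf4 (-0.60 ± 0.12) and Xbp1 (-0.51 ± 0.15) fell as well, Xbp1 not without 182 or 501. The 2 that rose were Trib3 (0.68 ± 0.22) and Sesn2 (0.50 ± 0.19). Trib3 was not called without 373 or 501, nor Sesn2 in 7 of the 10 fits that each left out 1 library.

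In female control mice, 1 of the 27 fell and 0 rose (median 0.12). The difference between the sexes was called for 14, all lower in males, and for 8 without 371. For Hspa5 it was -0.86 ± 0.22 (adjusted p = 0.0117). On the HF/HS diet 20 fell in males (median -0.58), and edgeR called the difference between the diets for 1, Sesn2, with 9 at an unadjusted p under 0.05, DESeq2 for 3 and limma for 4. Hspa5 changed by -1.24 ± 0.16 there, and the difference of 0.53 ± 0.22 was not called. The number of male control genes that fell was 18 without 373 and 18 without 372 and 373, but 1 with the clock component as a covariate.

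Cytosolic chaperones were lower too. Of 19 heat shock genes, 8 fell (median -0.38). Hspa1b, the inducible HSP70, was at 97.3, 175, 43.8, 11.2 and 3.53 CPM at 20 weeks and 7.44, 6.54, 5.09, 8.43 and 6.36 CPM at 40 weeks. The groups overlapped through 373, and 372 lay just above the 40-week range, while 181, 182 and 371 were high. The change was -3.28 ± 0.75 (adjusted p = 0.001), and that of its near-identical neighbour Hspa1a, with which it may share reads, -3.60 ± 0.89. Hsph1, which recharges HSP70, was at 217, 356, 204, 162 and 90.9 CPM at 20 weeks and 106, 112, 94.6, 59.7 and 70.4 CPM at 40 weeks and fell by 1.22 ± 0.26, with 373 alone in the 40-week range. Without 181 and 182, which left 3 libraries at 20 weeks, Hspa1b was at -1.52 (adjusted p = 0.157) and 2 members of the list fell. With the clock covariate 1 did. In male HF/HS mice 13 fell, and in female control mice edgeR called 0, with 2 at an unadjusted p under 0.05. The difference between the sexes was called for 3 members, -3.42 ± 0.9998 (adjusted p = 0.0258) for Hspa1b. Without 182, 203 or 452 edgeR called it for 0, with 4 or 5 at an unadjusted p under 0.05, and without 381 for 7.

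**Figure D3:**
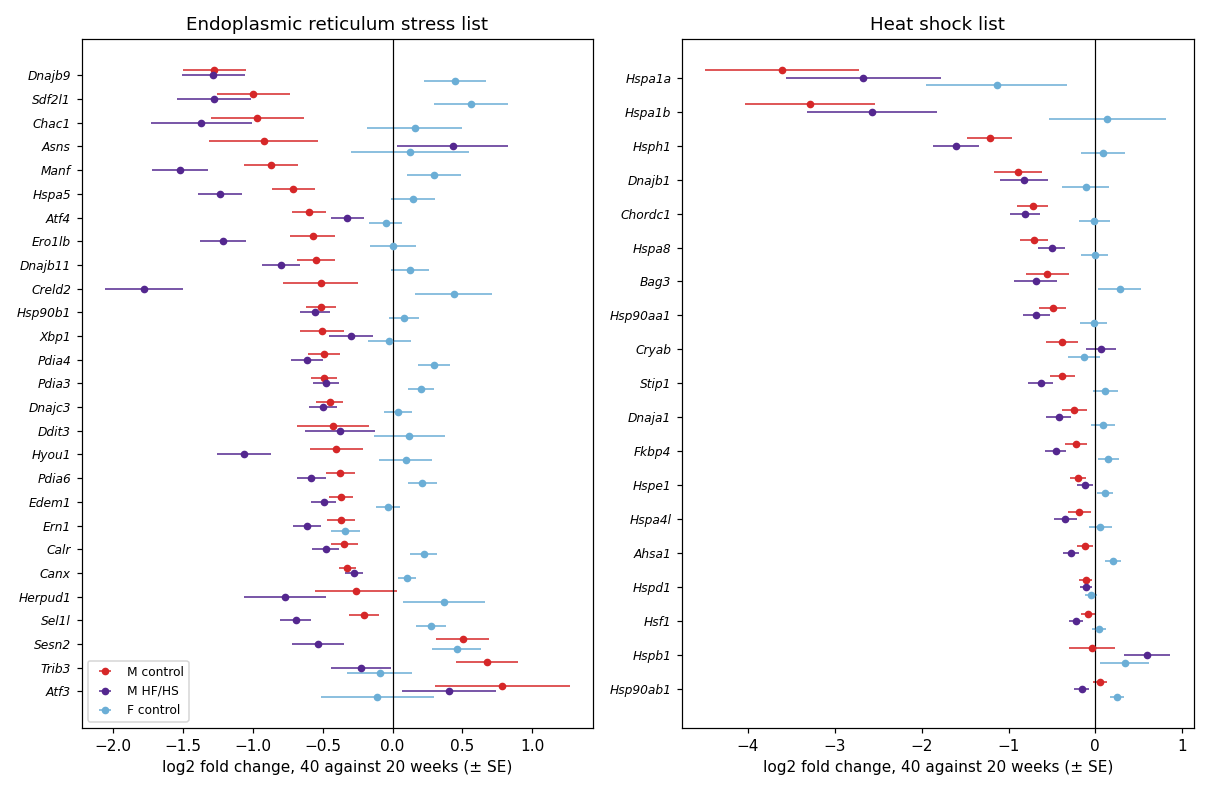
Log2 fold change of 40 against 20 weeks (± SE, horizontal axis) of each gene of the endoplasmic reticulum stress and heat shock lists in male control (red), male HF/HS (purple) and female control mice (light blue), each from 5 against 5 libraries. Most red and purple points lie left of 0, and most light blue points lie near 0 or to the right.

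The promoters of 3 of these chaperones are shown for the elements by which they are known to respond to unfolded protein. Capitals mark the endoplasmic reticulum stress element (CCAAT and CCACG with 9 bases between, either strand) in Hspa5 (chr2:34771840-34772139, + strand) and Hsp90b1 (chr10:86705395-86705694, - strand), and the heat shock element core GAANNTTC in Hspa1b (chr17:34959189-34959488, - strand).
Hspa5: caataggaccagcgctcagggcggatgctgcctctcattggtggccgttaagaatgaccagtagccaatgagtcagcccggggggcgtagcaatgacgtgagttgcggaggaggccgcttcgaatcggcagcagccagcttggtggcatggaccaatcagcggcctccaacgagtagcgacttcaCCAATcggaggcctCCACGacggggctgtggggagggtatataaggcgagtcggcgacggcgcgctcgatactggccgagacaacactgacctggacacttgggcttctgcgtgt
Hsp90b1: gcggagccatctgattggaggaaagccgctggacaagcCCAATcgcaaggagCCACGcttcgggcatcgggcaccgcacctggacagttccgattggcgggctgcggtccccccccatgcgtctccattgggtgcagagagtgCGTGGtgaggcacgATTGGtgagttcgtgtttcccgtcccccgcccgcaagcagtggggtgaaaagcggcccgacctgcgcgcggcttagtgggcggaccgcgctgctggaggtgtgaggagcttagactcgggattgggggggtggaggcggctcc
Hspa1b: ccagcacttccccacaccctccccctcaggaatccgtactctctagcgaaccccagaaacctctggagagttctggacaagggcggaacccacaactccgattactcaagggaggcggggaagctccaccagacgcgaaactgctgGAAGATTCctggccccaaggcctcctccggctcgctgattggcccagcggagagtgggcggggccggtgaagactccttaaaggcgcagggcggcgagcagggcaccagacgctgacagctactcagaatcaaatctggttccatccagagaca
The element starts -65 bases from the start of Hspa5, and 2 copies in opposite directions start at -212 and -107 in Hsp90b1. It was found in 7 of the 24 genes of the list that had a window (Calr, Canx, Creld2, Dnajc3, Hsp90b1, Hspa5 and Pdia6) and in 0.119% of all windows. The heat shock core was found in 10 of 14 heat shock genes and in 7.86% of all windows.

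Genes of fat storage, fat breakdown and fatty acid uptake rose. Of 19 genes of lipid droplets and fatty acid uptake, 9 rose and 1 fell (median 0.63). Mogat1, which makes diacylglycerol, was at 0.787, 0.299, 0.141, 0 and 0 CPM at 20 weeks and 3.06, 2.93, 6.64, 2.71 and 2.57 CPM at 40 weeks, apart in every library. The change was 3.77 ± 0.79 (adjusted p = 0.000376). Cidec, which enlarges lipid droplets, was at 0.644, 2.46, 0.494, 3.74 and 1.197 CPM at 20 weeks and 9.12, 10.4, 17.0, 9.14 and 13.3 CPM at 40 weeks and rose by 2.87 ± 0.72. With limma and sample weights the value was 3.28 (adjusted p = 0.134). Pnpla2, the triglyceride lipase, was at 63.2, 75.6, 56.3, 74.0 and 62.8 CPM at 20 weeks and 108, 99.7, 101, 117 and 98.6 CPM at 40 weeks and rose by 0.66 ± 0.10. Cd36, a fatty acid transporter, was at 87.0, 86.7, 71.6, 66.7 and 182 CPM at 20 weeks and 201, 195, 257, 189 and 158 CPM at 40 weeks, where 373 alone reached the 40-week range. It rose by 1.02 ± 0.27. Lpl, the secreted lipoprotein lipase, fell (-1.36 ± 0.29). The number that rose was 5 without 372 and 373 and 4 with the clock covariate, in which Mogat1 (3.98, adjusted p = 0.0123), Cidec (3.18, adjusted p = 0.036) and Cd36 (1.27, adjusted p = 0.0359) were still called.

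Fatty acid oxidation genes and targets of the fasting receptor PPARA rose alongside. Of 30, 14 rose and 1, the coactivator Ppargc1a (-0.65 ± 0.21, not called without 181, 371 or 502), fell (median 0.40). Cyp4a10, a fatty acid omega-hydroxylase, was at 3.44, 14.3, 0.918, 0.492 and 6.19 CPM at 20 weeks and 23.3, 18.04, 18.1, 36.4 and 25.4 CPM at 40 weeks. Its 20-week values varied from library to library and were all lower. The change was 2.24 ± 0.59 (adjusted p = 0.00431). Acot3, a peroxisomal thioesterase, was at 1.29, 4.63, 0.282, 1.18 and 8.45 CPM at 20 weeks and 19.1, 14.2, 17.6, 12.6 and 58.9 CPM at 40 weeks and rose by 2.90 ± 0.64. With limma it was 4.17 (adjusted p = 0.0627). Acot1 (1.83 ± 0.44) and Vnn1 (1.44 ± 0.32) rose as well. The Acot and Cyp4a genes lie in families of close copies, so their shares of the reads are uncertain. The median in females was -0.04, and the male change exceeded the female for 6, Acot3 by 3.57 ± 0.81. That number was 4 without 371, 203 or 461 and 10 without 182. With the clock covariate 1 rose, and 23 rose without 181 and 182. Of 19 genes of fatty acid synthesis, 4 rose, among them the desaturases Scd1 (0.54 ± 0.17, not called without 372) and Fads2 (0.59 ± 0.17). Without 372 and 373, 1 rose and 2 fell. With the clock covariate 7 rose and 0 fell, and without 181 and 182 the counts were the same 7 and 0. Of the lipoprotein genes, Apoa4 (0.93 ± 0.15) and the phospholipid transfer protein Pltp (1.18 ± 0.28) were higher.

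**Figure D4:**
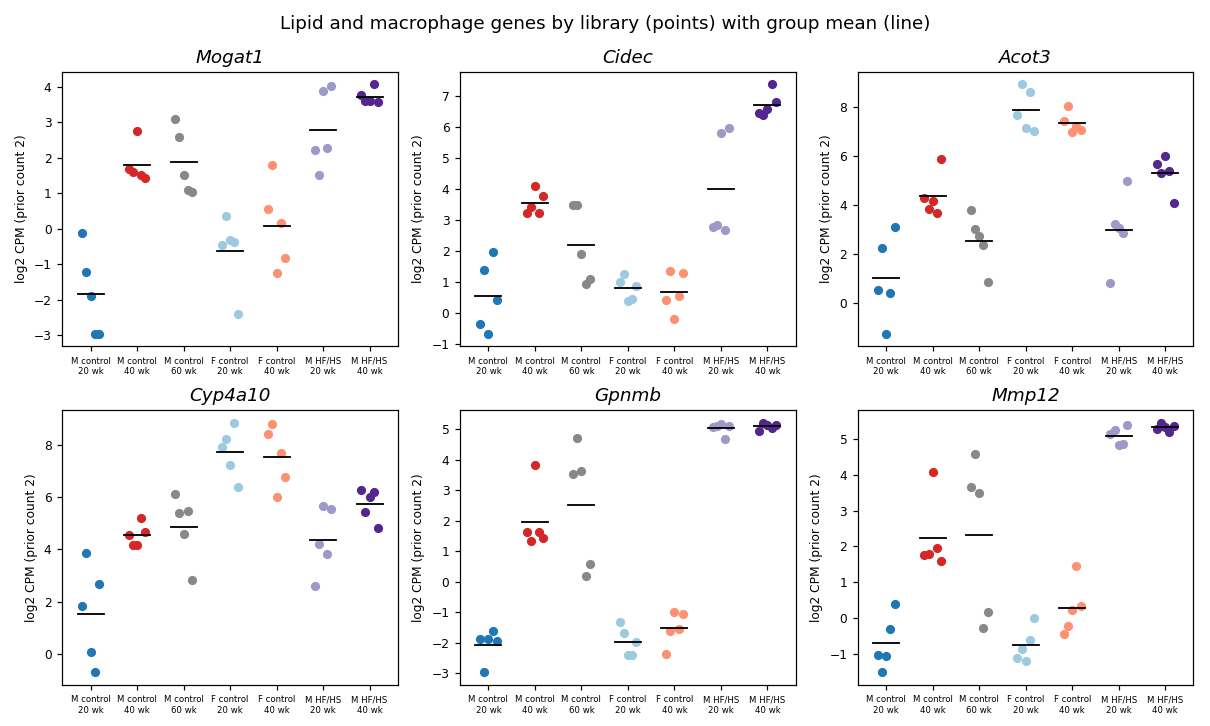
Log2 CPM (prior count 2, vertical axis) of 4 lipid genes and of the macrophage genes Gpnmb and Mmp12 in each library (points) with the group mean (line), for the groups on the horizontal axis. In male control mice all 6 genes are higher in every 40-week than in any 20-week library. Library 501 is the highest of the group for Gpnmb, Mmp12, Mogat1 and Cidec.

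Some macrophage markers rose. Gpnmb, a glycoprotein of lipid-laden macrophages, was at 0.143, 0, 0.141, 0.197 and 0.133 CPM at 20 weeks and 2.99, 2.40, 14.0, 3.01 and 2.57 CPM at 40 weeks, near the limit of counting at 20 weeks and highest in 501. The log2 fold change was 5.27 ± 0.97 (adjusted p = 6.87e-05). Mmp12, the macrophage elastase, was at 0.358, 0.224, 0.353, 0.689 and 1.197 CPM at 20 weeks and 3.28, 3.31, 16.7, 3.71 and 2.91 CPM at 40 weeks, and the change was 3.36 ± 0.71 (adjusted p = 0.000434). With limma and sample weights neither was called, at 4.61 (adjusted p = 0.133) for Gpnmb and 3.26 (adjusted p = 0.0939) for Mmp12. Itgax (CD11c) rose by 1.79 ± 0.50, though not without 501. Of 17 genes of lipid-associated macrophages, 4 rose and 2 fell, and 9 rose without 373. Trem2 (0.81 ± 0.55) and Spp1 (0.15 ± 0.27), further markers of these cells, did not pass. By edgeR, 0 of 18 general macrophage genes and 0 of 18 Kupffer cell genes were called, with 0 at an unadjusted p under 0.05 in either list, and limma called 1 Kupffer cell gene and DESeq2 0 (medians 0.04 and -0.20). Without 373, 2 general macrophage genes rose, with 3 at an unadjusted p under 0.05, and edgeR called 0 Kupffer cell genes, with 1 at that level. In bulk tissue, fewer cells of a type and less RNA per cell cannot be told apart. On the HF/HS diet the level of Gpnmb was 32.8 ± 4.29 CPM at 20 weeks and 34.2 ± 2.51 CPM at 40 weeks (SD, n = 5). The difference between the diets was 5.21 ± 1.11 (adjusted p = 0.00727) for Gpnmb and 3.15 ± 0.84 (adjusted p = 0.0329) for Mmp12, the latter not called without 371 or 501.

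Class II genes were higher in part. Of the 16 genes of class II antigen presentation and dendritic cells, 4 rose, among them Cd74 (0.62 ± 0.23) and H2-Eb1 (0.80 ± 0.27), of which neither was called without 181, without 182 or without 501. Of this list limma called 0, edgeR called 0 with the clock covariate (1 at an unadjusted p under 0.05), and without 181 and 182 it called 0 higher and 1 lower. Of 15 genes of B and plasma cells 1, Pax5, rose and 2 fell (median -0.01). The 2 were Xbp1 and Jchain, the joining chain of plasma cells (-1.19 ± 0.33). Of 13 genes of T and natural killer cells and 16 of bile duct cells, edgeR called 0, with 0 and 2 at an unadjusted p under 0.05, DESeq2 called 0, and limma 1 and 0. Col1a1, the chief fibrillar collagen, was at 3.01, 3.44, 5.43, 3.74 and 6.45 CPM at 20 weeks and 11.8, 8.19, 21.8, 9.26 and 6.63 CPM at 40 weeks, with ranges that just cleared each other. It rose by 1.37 ± 0.46 and was not called without 181, 182 or 501. Col5a2 fell (-1.26 ± 0.27). Of 36 matrix genes 4 rose in all (Col1a1, Timp3, Mmp12 and Mmp13), which is near the share of all tested genes, 10.4%. Of 36 cell cycle genes 4 rose, where 10.4% of all tested genes did, and 1, E2f8, fell (median 0.76). E2f1 (1.17 ± 0.20) and Ccne1 (1.29 ± 0.29) were among the 4, and Mki67 (1.21 ± 0.56) did not pass by edgeR, though DESeq2 called it. Of 30 interferon-responsive genes 3 rose, among them Oasl1 (0.99 ± 0.19) and Tap1 (0.67 ± 0.13), and 3 fell (Stat2, Iigp1 and Zbp1), with a median of 0.06. These counts are near or below the shares of all tested genes, 10.4% higher and 12.8% lower.

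Of 23 genes of the p53 response and senescence, 5 rose and 1 fell. Without 372 and 373 these counts were 2 and 3, and with the clock covariate 1 and 0. The p53 target Zmat3 rose by 0.45 ± 0.11 on the control diet and changed by -0.36 ± 0.11 on the HF/HS diet, a difference of 0.81 ± 0.15 (adjusted p = 0.00228). The cell cycle inhibitor Cdkn1a (p21), which is clock-driven too, fell by 1.28 ± 0.47, and this call was lost without 371, 493, 501, 502 or 503. The stress cytokine Gdf15 (1.04 ± 0.40) did not pass by edgeR, though DESeq2 called it.

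Cholesterol genes parted by diet. Of 23 genes of cholesterol synthesis and uptake, 7 fell and 1 rose on the control diet (median -0.44). On the HF/HS diet 8 rose (median 0.47). The difference was called for 7, all lower on the control diet, and for 4 (without 371 and 11 others) to 12 (without 182) with 1 library left out. Insig1, the sterol-responsive brake on this pathway, was at 529.8, 275, 432, 431 and 239.8 CPM at 20 weeks and 192, 194, 216, 189 and 164 CPM at 40 weeks, without overlap, and fell by 0.999 ± 0.22. Its change on the HF/HS diet was 0.14 ± 0.22, and the difference (control minus HF/HS) was -1.14 ± 0.31 (adjusted p = 0.041), a call lost in 16 of the 20 fits that each left out 1 library. Msmo1 fell (-0.84 ± 0.22) but not without 372. Sqle, the squalene epoxidase of this pathway, did not pass by edgeR (-1.16 ± 0.45), but was called by DESeq2 and by limma (-1.19, adjusted p = 0.0194). With the clock covariate edgeR called 0 of these genes, with 4 at an unadjusted p under 0.05.

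Part of the axis of growth hormone, which acts on the liver through STAT5, was lower at 40 weeks. Of 20 genes of the growth hormone and IGF axis, 8 fell and 1 rose (median -0.32). The 8 were Socs2, Cish, Igf1, Igfbp1, Stat5b, Prlr, Igf1r and Lifr, so not all are targets of the hormone. Socs2, a feedback inhibitor of the receptor, was at 48.8, 137, 46.5, 75.2 and 53.4 CPM at 20 weeks and 17.8, 11.3, 5.46, 17.0 and 12.4 CPM at 40 weeks, and every 40-week library was lower. The change was -2.49 ± 0.52 (adjusted p = 0.000415). Cish, another such inhibitor, was at 72.1, 71.5, 33.7, 68.0 and 29.0 CPM at 20 weeks and 33.6, 29.7, 5.38, 6.01 and 4.67 CPM at 40 weeks. Libraries 371 and 373 lay beside 492 and 493, and the change of -1.80 ± 0.56 was not called without 501, 502 or 503. Igf1, the growth factor the liver secretes, was at 1543, 1648, 1689, 1710 and 1651 CPM at 20 weeks and 1239, 1179, 1240, 1099 and 1398 CPM at 40 weeks, and fell by 0.42 ± 0.12 with no overlap. Igfbp1, an IGF-binding protein held down by insulin, was at 138, 49.5, 65.4, 21.1 and 69.7 CPM at 20 weeks and 14.8, 11.6, 20.7, 20.7 and 12.7 CPM at 40 weeks and fell by 2.09 ± 0.61. Socs2 kept its call with the clock covariate (-3.44, adjusted p = 0.00133), and 3 genes of the list fell there. In that fit neither Igf1 (-0.45, adjusted p = 0.105) nor Igfbp1 (0.65, adjusted p = 0.618) was called. Igfbp1 was also not called with the male 20-week libraries numbered over 300 only (-1.69, adjusted p = 0.0656). In females, Socs2 changed by -2.07 ± 0.52.

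Genes of glucose metabolism moved both ways, with 7 of 23 higher and 5 lower. With the clock covariate 4 were higher and 0 lower, and without 372 and 373 it was 2 and 7. Gys2, the liver's glycogen synthase, was at 166, 187, 106, 130.0 and 76.8 CPM at 20 weeks and 215, 224, 242, 194 and 279.5 CPM at 40 weeks and rose by 0.79 ± 0.12. Irs2, which relays the insulin signal, was at 181, 134, 153, 90.5 and 103 CPM at 20 weeks and 55.6, 60.6, 55.3, 69.2 and 55.3 CPM at 40 weeks and fell by 1.16 ± 0.19. Neither gene's groups overlapped. The change of both differed between the sexes, by 1.13 ± 0.17 and -1.46 ± 0.26 (male minus female).

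Drug metabolism genes had no common direction. Of 26 genes of phase I metabolism 5 rose and 2 fell, where 10.4% of all tested genes rose and 12.8% fell. Of 28 phase II genes and NRF2 targets 2 rose and 1 fell, which is below those shares. Without 373 these counts were 5 and 0, and 2 and 2. With the clock covariate edgeR called 0 of the phase I genes, with 7 at an unadjusted p under 0.05. Nr1i3 (CAR), a receptor for foreign compounds and a known target of the D-box factors, was at 40.1, 75.1, 24.9, 37.4 and 19.4 CPM at 20 weeks and 86.3, 118, 114, 100.1 and 161 CPM at 40 weeks and rose by 1.56 ± 0.26 (adjusted p = 1.6e-05). Cyp2a5, a coumarin hydroxylase that may share reads with close copies, was at 38.4, 26.3, 19.1, 22.1 and 9.98 CPM at 20 weeks and 84.3, 78.8, 72.0, 73.3 and 93.1 CPM at 40 weeks and rose by 1.80 ± 0.34. In females the values were -0.18 ± 0.25 and -0.23 ± 0.32, and the differences 1.74 ± 0.36 (adjusted p = 0.00144) and 2.02 ± 0.47 (adjusted p = 0.00467). Of 18 genes expressed around the central vein, 6 rose (median 0.39). They were Axin2, Sp5, Tbx3, Rnf43 and Znrf3, known targets of WNT signalling, and Slc22a3. Slc22a3, an organic cation transporter, was at 7.30, 5.75, 6.14, 7.87 and 1.60 CPM at 20 weeks and 13.8, 17.4, 19.8, 14.2 and 17.0 CPM at 40 weeks, a change of 1.54 ± 0.26 (adjusted p = 2.39e-05). The transcription factors Sp5 (1.23 ± 0.29) and Tbx3 (0.93 ± 0.26) and the receptor ligase Rnf43 (1.03 ± 0.23) rose too. Slc22a3 alone of the 18 was called with the clock covariate (1.21, adjusted p = 0.027). Sp5 (0.62, adjusted p = 0.383), Tbx3 (0.58, adjusted p = 0.383) and Rnf43 (0.28, adjusted p = 0.668) were not. Tbx3 was also not called with the male 20-week libraries numbered over 300 only (0.75, adjusted p = 0.0702). Of 16 periportal genes 3 fell (median -0.01). The bile salt pump Abcb11 fell (-0.47 ± 0.08), and Cyp7a1, which sets the pace of bile acid production, did not pass (0.72 ± 0.56).

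Acute phase proteins were high in part of the 20-week group. Of 28 such genes 10 fell (median -0.55). Orm1, an acid glycoprotein of the acute phase, was at 12.03, 3.36, 477, 135 and 1419 CPM at 20 weeks and 62.6, 15.9, 24.5, 138 and 12.1 CPM at 40 weeks, so 371 and 373 lay above all others while 181 and 182 lay below the 40-week range. The change was -3.01 ± 1.01 (adjusted p = 0.024) and without 373 it was -1.61 (adjusted p = 0.227). The call was also lost without 493, 501 or 503. Apcs (serum amyloid P) was at 27.3, 65.7, 512, 93.1 and 1674 CPM at 20 weeks and 92.9, 108, 76.5, 91.8 and 129.7 CPM at 40 weeks. It changed by -2.25 ± 0.59, or -0.79 (adjusted p = 0.27) without 373. Saa1 (-1.13 ± 0.78) did not pass. Without 373, edgeR called 0 of the 28 genes, with 0 at an unadjusted p under 0.05, and the same held with the clock covariate. Neutrophil markers summed to 11.7, 12.2, 367, 59.5 and 1466 CPM at 20 weeks and 46.4 to 279 CPM at 40 weeks, with the same 2 libraries high. The mean log2 CPM of the 9 tested was only 1.09 in 371 and 2.46 in 373. Few markers thus held most of these sums, which do not measure the number of neutrophils. The pattern was not particular to this list. Genes of the fetal liver and liver tumour list summed to 63.2, 62.9, 413, 121 and 1565 CPM at 20 weeks. Of the neutrophil markers 16 of 16 had counts in the 10 libraries, and 2 of the 9 tested fell. Without 373 edgeR called 0 of the 9, with 0 at an unadjusted p under 0.05, and with all libraries DESeq2 called 3 and limma 0. The part of these cells in the result was not tested.

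Library 373 was also low in male-biased liver genes, which growth hormone pulses keep high in males, and high in female-biased ones. Male-biased genes summed to 8513 CPM in 373 and to 18310 to 24280 CPM in the other 20-week libraries, against 12880 to 16320 CPM at 40 weeks. Female-biased genes summed to 1073 CPM in 373 and to 331 to 505 CPM in the other 9. Their mean log2 CPM was 0.41 to 0.56 in the other 20-week libraries and 0.83 to 1.27 at 40 weeks. Of 26 tested, 2 rose and 7 fell. Leaving out 373 gave 5 and 1, where 1697 and 1636 of all genes rose and fell. With the clock covariate edgeR called 0 of the 26, with 7 at an unadjusted p under 0.05. Cyp3a44, a female-biased cytochrome, was at 1.07, 0.896, 1.13, 0.689 and 91.5 CPM at 20 weeks and 0.948, 1.95, 4.13, 1.89 and 2.30 CPM at 40 weeks. Its change was -3.11 ± 0.72, and 1.23 (adjusted p = 0.0987) without 373. A2m, the alpha-2-macroglobulin gene, rests on 373 in the same way, with a change of -6.15 ± 1.86, and -0.51 (adjusted p = 0.93) without it. Hsd3b5, a male-biased steroid dehydrogenase, did not pass (-0.50 ± 0.54). Of 25 male-biased genes 2 fell, and 5 fell without 373.

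Skeletal muscle genes were high in 2 of the 20-week libraries. Ckm, the muscle creatine kinase, was at 0.573, 0.0747, 0, 27.6 and 13.5 CPM at 20 weeks and 0.875, 0.0752, 0.0737, 0 and 0.271 CPM at 40 weeks, high in 372 and 373 only. Over the 17 genes of the list the summed level was 30.0 to 591 CPM at 20 weeks and 30.5 to 66.4 CPM at 40 weeks, and 8 of 16 tested genes fell. Ckm changed by -4.99 ± 1.47, and by 0.21 (adjusted p = 0.957) without 372 and 373, when edgeR called 0 of the list, with 0 at an unadjusted p under 0.05. The fit without both libraries was chosen after their values had been seen. The part of muscle tissue in the result was not tested.

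**Figure D5:**
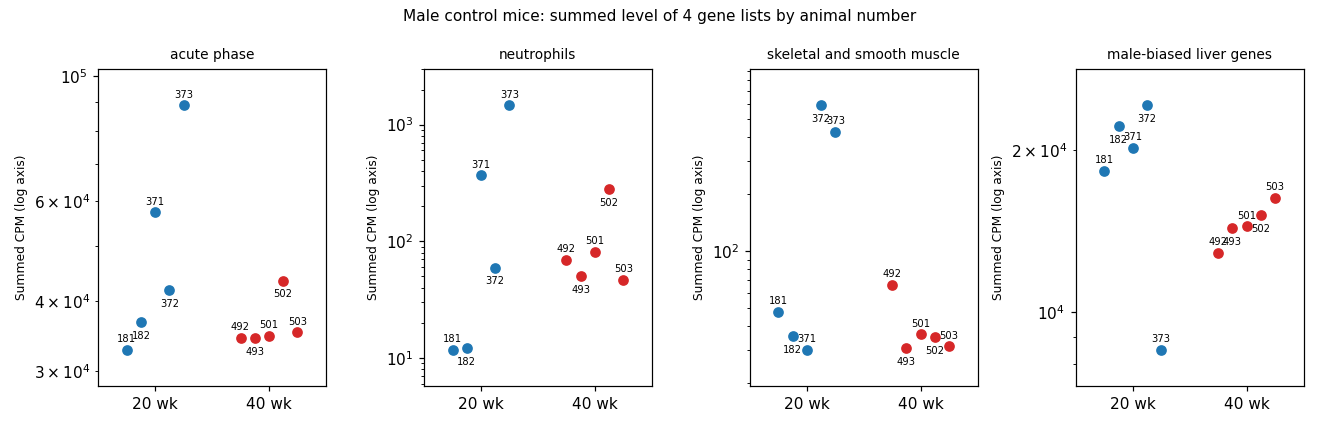
Summed CPM (vertical log axes) of 4 gene lists in each male control library at 20 weeks (blue) and 40 weeks (red), with the animal number beside each point. Libraries 371 and 373 stand highest for acute phase and neutrophil genes, 372 and 373 for muscle genes, and 373 lies lowest for male-biased genes.

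Ribosomal protein genes were slightly lower. Of 30, 18 fell, with a median log2 fold change of -0.19 and ranges that did not overlap for 15. Rps6, a protein of the small subunit, was at 97.2, 95.1, 94.4, 98.5 and 93.1 CPM at 20 weeks and 65.2, 70.7, 70.3, 73.2 and 75.2 CPM at 40 weeks. Its spread within each group was small, and the change was -0.43 ± 0.07 (adjusted p = 6.06e-06). Rpl7 of the large subunit changed by -0.31 ± 0.06. In females 1 and on the HF/HS diet 2 of the 30 fell (medians 0.02 and -0.02). By edgeR the change differed between the sexes for 1 and between the diets for 0 of them, with 21 and 14 at an unadjusted p under 0.05. DESeq2 called 3 and 0, and limma 12 and 10. The number in male control mice was 15 with small non-coding RNAs taken out before the scaling, 18 with relative log expression factors, and 2 with the clock covariate. It was 11 without 372, without 492 and without both 372 and 373, and 12 without 371. Of 30 nuclear genes of the respiratory chain, 1 fell (median 0.00).

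Several of the largest changes lay outside these groups. Pnldc1, a nuclease known from piRNA trimming, was at 0.644, 0.822, 0.212, 0.394 and 0.466 CPM at 20 weeks and 4.74, 4.06, 5.38, 4.30 and 5.48 CPM at 40 weeks, a change of 3.21 ± 0.41 (adjusted p = 2.24e-07). A4gnt, a glycosyltransferase of mucin glycans, was at 6.16, 0.448, 2.19, 0.295 and 0.266 CPM at 20 weeks and 25.7, 22.2, 24.7, 7.02 and 21.9 CPM at 40 weeks and rose by 3.39 ± 0.65. In male HF/HS mice it changed by -0.13 ± 0.53, and the difference was 3.52 ± 0.84 (adjusted p = 0.0171). Osbpl3, an oxysterol-binding relative, was at 1.22, 1.42, 1.13, 0.886 and 2.26 CPM at 20 weeks and 11.4, 11.9, 13.9, 11.4 and 9 CPM at 40 weeks and rose by 3.02 ± 0.63. Rbm24 (3.83 ± 0.75), Bmp8b (3.27 ± 0.81) and Fam83a (2.97 ± 0.66) rose from means under 1 CPM, although limma with sample weights called neither the last 2 nor Osbpl3 (3.23 (adjusted p = 0.0724)).

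Among the largest falls, Gadd45g, a stress-induced growth inhibitor, was at 74.5, 19.4, 22.9, 19.1 and 17.4 CPM at 20 weeks and 2.92, 4.13, 3.39, 3.07 and 2.03 CPM at 40 weeks, with 181 far above the rest. The change was -3.31 ± 0.63 (adjusted p = 0.000117). Cdh1 (E-cadherin), which joins epithelial cells, was at 108, 75.7, 112, 111 and 93.7 CPM at 20 weeks and 36.5, 37.7, 23.7, 41.6 and 30.2 CPM at 40 weeks and fell by 1.55 ± 0.27. At 60 weeks it was at 9.30 to 25.01 CPM. The change of Cdh1 differed from that in females by -1.49 ± 0.37 (adjusted p = 0.00855) and from that on the HF/HS diet by -1.41 ± 0.38 (adjusted p = 0.0313), the latter not called in 12 of 20 fits without 1 library. Ppard (-1.56 ± 0.43, not called without 371), Chka (-1.53 ± 0.23) and Tcf24 (-3.36 ± 0.50) fell too. The CPM ranges of Gadd45g and Cdh1 did not overlap.

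The levels at 60 weeks, in 5 further male control libraries, lay on either side of those at 40 weeks. The animal numbers at 60 weeks were 11, 21, 22, 23 and 171. They are under 300, like 181 and 182 at 20 weeks, while all 40-week numbers are over 300. The clock component was between -3.00 and -1.78, within the 20-week range. Dbp was at 2.09 to 3.85 CPM, below every 40-week library, with Per3 at 5.46 to 8.98 CPM. Dnajb9 was at 114 to 176 CPM and Hspa1b at 29.2 to 102 CPM, both above every 40-week library and within the 20-week range. Insig1, at 300.4 to 422 CPM, and Gys2, at 122 to 142 CPM, lay within the 20-week range as well. Mogat1 (1.94 to 8.46 CPM), Gpnmb (1.001 to 26.1 CPM) and A4gnt (27.5 to 57.3 CPM) lay above every 20-week library. Socs2 (1.87 to 21.3 CPM) and Igf1 (935 to 1107 CPM) lay below every 20-week library, and Rps6 (59.6 to 84.1 CPM) did too.

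The change with weeks on the control diet differed between males and females for 1059 genes (7.47% of those tested), 533 of them higher and 526 lower in the male change. This split was 653 to 434 with small non-coding RNAs taken out before the scaling and 626 to 340 without 373. In females 584 genes were called, 282 higher and 302 lower at 40 weeks. Between the control and the HF/HS diet in males, the change differed for 308 genes (2.17%), 122 higher and 186 lower in the control change. That split depended on the scaling. It was 144 to 145 with relative log expression factors and 198 to 115 with small non-coding RNAs taken out first. In male HF/HS mice 2470 genes were called, 1341 higher and 1129 lower. Both differences use the 10 libraries described here, so no overlap of their calls with those above is given. With the clock component as a covariate, edgeR called the sex difference for 0 genes, with 1002 at an unadjusted p under 0.05, and the diet difference for 313. Without 372 and 373 the diet difference was called for 82 genes, and leaving out 1 library at a time gave 140 (without 493) to 581 (without 182).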

How the data were processed

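RNA of flash-frozen liver was extracted with miRNeasy and sequenced after depletion of ribosomal RNA with a stranded total RNA kit, per the labels' protocols. The authors deposited whole-number read counts per gene symbol for 60 libraries in 1 table, on mm10, per the submitters' processing notes. No aligner, counter or use of strand is named in the sources used here. Of 24982 entries, 26 have symbols that read as dates (0.201% of counts), and none of them is named. Genes were kept by edgeR's filterByExpr (a count of 10, a total of 15), which left 14180. Libraries of all 12 groups, of 10923963 to 20942463 counts, were scaled by TMM and fitted with edgeR 4.0.16 (R 4.3.3) by quasi-likelihood, 1 mean a group and no replicate block. This gave log2 fold changes with SEs and adjusted p-values (Benjamini-Hochberg, threshold 0.05), one contrast for 40 against 20 weeks and one each for the difference from females and from the HF/HS diet. DESeq2 1.42.0, limma 3.58.1, other scalings and filters, covariates and left-out libraries were alternatives. The fitting was tested on simulated data.

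The gene lists and the rule for named genes were chosen with earlier results of these data known. The rule took the 10 largest rises and falls without overlap, the 4 largest changes of each list with at least 3 calls, a fixed panel and the 5 largest differences each way. Tef, Hlf, Cry2, Bhlhe40, Rora, Wee1, Hspa5, Hsp90b1, Pdia4, Atf4, Trib3, Cd36, Pnpla2, Ppargc1a, Vnn1 and Zmat3 fall outside it and were named after their values were seen. Of the 170 genes the rule took, 85 were examined singly, and not all of these are printed. Genes given by name alone are called members of their lists. Some results are not reported here.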

Additional observations from a re-analysis of the deposited data

Results flagged for a closer look

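In 22 of 170 groups of 5 values, 1 library lay apart from the other 4, by a gap of over 0.71 of the range of the group. For independent values with a normal spread, chance would give about 1 in 20. The groups here share libraries and in part genes, so that rate is no reference for them. Most of the 22 concerned library 373 at 20 weeks. Its mean log2 CPM was the lowest of its group for genes of xenobiotic phase II metabolism (4.71), male-biased genes (6.14), hepatocyte markers (10.29) and central zonation genes (5.56). It was the highest for female-biased genes (2.28), matrix genes (3.69), immediate early genes (2.85), exocrine pancreas genes (1.50) and erythroid genes (3.66). For single genes, log2 CPM in 373 was 7.51 for Cd36 and 6.52 for Cyp3a44, both high, and 0.79 for Slc22a3, which was low. In library 182 Gpnmb (-2.95, no count) was low, and in 181 Gadd45g (6.22) was high.

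At 40 weeks, library 501 was the highest for Gpnmb (3.82), Mmp12 (4.07) and Mogat1 (2.76), with the other 4 libraries close to each other. Library 502 was the lowest for phase II genes (5.41) and A4gnt (2.84) and the highest for exocrine pancreas genes (1.57). Library 492 was the highest for muscle genes (1.37), and 503 for Acot3 (5.88).

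The change from 20 to 40 weeks differed between male and female control mice, by edgeR's quasi-likelihood test of the difference (male minus female, log2), for several genes printed with their values. In the clock it was -2.62 for Arntl, -3.43 for Npas2, 6.19 for Dbp, 4.05 for Per3 and 3.01 for Wee1. Among the chaperones it was -0.86 for Hspa5, -1.72 for Dnajb9, -3.42 for Hspa1b and -1.31 for Hsph1. In metabolism it was 3.57 for Acot3, 0.53 for Pnpla2, 1.13 for Gys2, -1.46 for Irs2, 2.02 for Cyp2a5, 1.74 for Nr1i3 and 1.57 for Slc22a3. It was 2.64 for Pnldc1, 3.11 for Osbpl3, -3.05 for Gadd45g and -1.49 for Cdh1. Values of -2.74 for Apcs and -3.28 for Cyp3a44 rest on 373, without which they were -1.27 (adjusted p = 0.294) and 1.07 (adjusted p = 0.318). The call was lost for Gadd45g without 181, for Hspa1b and Hsph1 without 182, 203 or 452, and for Osbpl3 in 14 of the 20 fits that each left out 1 library.

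Between the control and the HF/HS diet in males, the difference of the changes (control minus HF/HS, log2) was 5.21 for Gpnmb, 3.15 for Mmp12, 3.52 for A4gnt and 1.32 for Slc22a3. It was -1.14 for Insig1, -1.41 for Cdh1 and -2.90 for Apcs. Without 373 the values were -1.41 (adjusted p = 0.343) for Apcs, -1.39 (adjusted p = 0.0539) for Cdh1 and 1.12 (adjusted p = 0.062) for Slc22a3. With 1 library left out at a time the call was lost in 16 of 20 fits for Apcs and Insig1, in 12 for Cdh1, in 3 for Slc22a3 and in 2 for Mmp12.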

How the results depend on the processing

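The 3284 genes called in male control mice became 809 with the clock component as a covariate, 2127 with only the 10 libraries compared, and 428 where a 2-fold change was required, and 2487 to 3333 with 1 library left out. The 1059 sex differences became 1713 with limma, 0 with the clock component (1002 at an unadjusted p under 0.05 by edgeR), 563 with only their own libraries, 1616 with the male 20-week libraries numbered over 300 only, and 298 at 2-fold. With 1 library left out they were 662 (without 461) to 1242 (without 181), and 665 without 371. The 308 diet differences became 839 with limma, 201 without the filter, 1177 with numbers over 300 only, 82 without 372 and 373 (chosen after seeing the data) and 107 at 2-fold, and 140 to 581 with 1 library left out. Without 181 they were 528. The cause was not tested. DESeq2 gave 3434, 1253 and 457 calls.

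With the clock component the direction turned for Cdkn1a (0.61), Cry1 (0.36), Cyp7a1 (-0.71), Dbp (-0.93), Igfbp1 (0.65), Nfil3 (0.20), Nr1d1 (-0.99), Per3 (-0.70), Ppard (1.06), Sqle (0.26) and Tef (-0.24). It turned for Ckm (0.21) without 372 and 373, and for Cyp3a44 with limma (0.50), without 372 and 373 (1.11) and without 373 (1.23), while its values with 1 library left out ran from -3.44 to 1.23. Of the 101 genes, 96 kept their direction and their side of the threshold with DESeq2 and 80 with limma. No paired analysis was possible because the animal numbers differ in all groups. Genes at a few CPM had few counts, which limits their precision.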
